A study of Mus musculus with 12 samples.

Results

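Selenbp1, Amz1, Nos2, Cacna1h, Atp7b and Ndrg1 had very unequal levels among libraries that carry the same label. They were chosen by that spread within each label, from earlier results of these data, and are 6 of the 20201 genes in the table. All 6 had a mean of at least 10 normalized counts over the 12 libraries and so belonged to the 12553 genes tested. Atp7b met this only through the libraries where it was high. The levels, and the folds between libraries of one label, are therefore given as a description with no test. Tests were made of the contrast between the labels. How that contrast differed among the libraries was fitted too, but it is built from these folds, and nothing is read from it for the 6 genes.

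The data are RNA sequencing of mouse myotubes, the fused muscle cells formed by cultured primary myoblasts. Every culture derived from mice whose Bmal1 gene is floxed. Bmal1 encodes a circadian transcription factor and is listed here under its older symbol, Arntl. An adenovirus with Cre recombinase, which removes the floxed part, or an empty adenovirus was given for 48 hours, before 6 hours at 21% or 1% oxygen. The labels give 6 libraries as wildtype in 21% oxygen (Myotube1, 2, 3, 7, 8 and 9, wildtype replicates 1 to 6) and 6 libraries as Bmal1 knockout in 1% oxygen (Myotube4, 5, 6, 10, 11 and 12, knockout replicates 1 to 6). Genotype and oxygen thus go together in the labels, although the design text speaks of each virus in each oxygen level, and the labels assign no oxygen difference within a genotype. They also name no animal, culture or batch, and the spread behind each p-value is that among these libraries and possibly only technical. The title numbers split each label into 3 lower-numbered and 3 higher-numbered libraries. These sets are named by title number only, and the labels assign them no condition.

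Before the 6 genes are described, 3 facts about the libraries are needed. Arntl lay at 133 to 179 normalized counts under the wildtype label and at 41.7 to 48.6 under the knockout label, so the targeted gene went with the genotype label. Genes that low oxygen is widely reported to induce did not go with the oxygen label. Their list was chosen with earlier results of these data known. In 24 of the 25 genes every higher-numbered library of a label lay above every lower-numbered one, under both labels. Of all genes tested, 11.1% did so. The summed level of the 25 genes was 29472 to 36945 in Myotube1 to Myotube6 and 61861 to 66192 in Myotube7 to Myotube12. Each library is named by its label, none was reassigned, and nothing here is attributed to oxygen. Total reads were 6376584 to 12463339 per library, and 3 reads corresponded to 2.12 to 5.85 normalized counts. Myotube2 stood apart, with the fewest reads and with 29.6% of genes at 0 against 13.0% to 21.9% elsewhere.

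As background, cells sense oxygen through prolyl hydroxylases that mark hypoxia-inducible factor (HIF) for destruction, and when oxygen falls HIF accumulates and binds short DNA sites with the core ACGTG or GCGTG. BMAL1 and its partner CLOCK belong to the same protein family and bind the related E-box CACGTG. The 6 genes have unlike jobs. Ndrg1 encodes a cytoplasmic protein of the N-myc downstream-regulated family and is a widely used marker of low oxygen. Selenbp1 encodes a selenium-binding protein that oxidizes methanethiol. Nos2 encodes the inducible nitric oxide synthase, best known from activated macrophages. Cacna1h encodes the pore of the T-type calcium channel Cav3.2. Atp7b encodes the copper-transporting ATPase that is defective in Wilson disease. Amz1 encodes archaemetzincin 1, a zinc-dependent protease.

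Promoter sequence is shown because the 6 genes stepped together and because the cores above can be looked for in it. RefSeq windows (GRCm38.p6, from 250 bases before to 50 bases after the start site) were matched for Selenbp1, Amz1 and Atp7b. The lines that follow give the part of the Selenbp1 and Amz1 windows that lies before the gene's annotated start, 5′ to 3′ on the gene's strand, at chr3:94932833-94933055 (plus strand) and chr5:140723877-140724126 (plus strand). Capitals mark ACGTG or GCGTG on either strand.
Selenbp1: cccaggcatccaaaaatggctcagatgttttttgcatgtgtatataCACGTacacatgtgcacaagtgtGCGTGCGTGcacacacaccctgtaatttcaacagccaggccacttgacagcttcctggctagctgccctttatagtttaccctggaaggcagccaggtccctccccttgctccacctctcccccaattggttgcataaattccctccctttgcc
Amz1: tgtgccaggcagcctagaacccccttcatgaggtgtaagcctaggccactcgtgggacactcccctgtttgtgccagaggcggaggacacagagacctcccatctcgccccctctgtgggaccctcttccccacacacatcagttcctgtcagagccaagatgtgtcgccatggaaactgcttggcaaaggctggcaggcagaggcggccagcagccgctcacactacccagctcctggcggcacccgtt
In the Selenbp1 window CACGT, which is ACGTG read on the other strand, begins 204 bases before the RefSeq start site. GCGTG begins at 181 and again, overlapping it, at 177 bases before that site. The RefSeq start of Selenbp1 lies 27 bases inside the gene as GENCODE annotates it, and the printed line ends at the GENCODE start. The Amz1 stretch printed here has no match, and its single GCGTG begins at base 13 of the transcript. The Atp7b window (chr8:22060025-22060324, minus strand) held neither core and is not printed, since its RefSeq start lies 231 bases inside the gene as GENCODE annotates it. None of the 3 windows held CACGTG. Among all 32851 windows of the same length, 19.6% held ACGTG, 32.4% GCGTG, 43.8% either core and 7.15% CACGTG. A match describes letters only, and these shares are those of any promoter.

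Ndrg1 (ENSMUSG00000005125, chromosome 15, 66929318 to 66969640, minus strand, mm10) was the most abundant of the 6. It stood at 367, 369 and 340 normalized counts in Myotube1 to 3 and at 5267, 5517 and 5195 in Myotube7 to 9, all labelled wildtype. Under the knockout label it stood at 329, 304 and 299 in Myotube4 to 6 and at 5061, 5406 and 5305 in Myotube10 to 12. The lower- and higher-numbered libraries were far apart under each label and very even inside each set. The ratio of set means was 14.9 under the wildtype label (359 ± 16.1 against 5327 ± 169, SD, n = 3 each) and 16.9 under the knockout label (310 ± 16 against 5258 ± 177).

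Selenbp1 (ENSMUSG00000068874, chromosome 3, 94933056 to 94944758, plus strand) had the widest step under the knockout label. The wildtype-labelled libraries held 70.4, 60.4 and 54.2 normalized counts in Myotube1 to 3 and 1552, 1688 and 1343 in Myotube7 to 9. The knockout-labelled libraries held 36.3, 27.4 and 23.1 in Myotube4 to 6 and 1550, 1563 and 1518 in Myotube10 to 12. The higher-numbered sets coincided across labels, whereas the lower-numbered sets did not overlap. The ratio of set means was 24.8 under the wildtype label (61.7 ± 8.20 against 1527 ± 174, SD, n = 3 each) and 53.4 under the knockout label (28.9 ± 6.73 against 1544 ± 22.9). Its near copy Selenbp2, with which reads could be shared, had no read in Myotube1 to 6 and at most 3.90 normalized counts in Myotube7 to 12.

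Nos2 (ENSMUSG00000020826, chromosome 11, 78920787 to 78960254, plus strand) was low in all lower-numbered libraries. Its levels were 18.5, 26.3 and 8.41 normalized counts in Myotube1 to 3 and 15.7, 22.4 and 18.6 in Myotube4 to 6. Each of these 6 values rested on 9 to 21 reads. In the higher-numbered libraries the levels were 453, 462 and 490 under the wildtype label (Myotube7 to 9) and 382, 397 and 451 under the knockout label (Myotube10 to 12). The lower sets overlapped across labels, and the higher sets were separated only by the small gap between 451 and 453. The ratio of set means was 26.4 under the wildtype label, from 17.7 ± 8.98 to 468 ± 19.1, and 21.7 under the knockout label, from 18.9 ± 3.38 to 410 ± 36.3 (SD, n = 3 each).

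Cacna1h (ENSMUSG00000024112, chromosome 17, 25374285 to 25433783, minus strand) was the least even of the 6 in the lower-numbered libraries. Myotube1 to 3 held 33.5, 132 and 10.3 normalized counts and Myotube7 to 9 held 440, 357 and 364. Myotube4 to 6 held 12.4, 3.73 and 19.5, the value of Myotube5 resting on 3 reads, and Myotube10 to 12 held 345, 415 and 320. The high value in Myotube2, the library that stands apart, set the wildtype-labelled mean of 58.5 ± 64.4 (SD, n = 3). The ratio of set means was 6.62 under the wildtype label and 30.3 under the knockout label. On the log2(normalized count + 1) scale the wildtype-labelled step was 3.38, and 4.29 without Myotube2, while the knockout-labelled step was 5.04.

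Atp7b (ENSMUSG00000006567, chromosome 8, 21992785 to 22060305, minus strand) was close to the floor of detection in the lower-numbered libraries. They held 7.92, 6.19 and 5.61 normalized counts under the wildtype label and 4.94, 2.49 and 5.32 under the knockout label, from 2 to 9 reads each. The higher-numbered libraries held 116, 153 and 148 in Myotube7 to 9 and 144, 153 and 146 in Myotube10 to 12. With reads summed over each set and scaled for depth, the ratio was 20.9 under the wildtype label and 33.3 under the knockout label. These ratios rest on few reads in the lower-numbered sets and are a description only.

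Amz1 (ENSMUSG00000050022, chromosome 5, 140724127 to 140761439, plus strand) also rested on few reads where it was low. Its levels were 14.1, 1.55 and 19.6 normalized counts in Myotube1 to 3, the value of Myotube2 being 1 read, and 18.1, 7.47 and 11.5 in Myotube4 to 6. They were 204, 282 and 257 in Myotube7 to 9 and 214, 295 and 230 in Myotube10 to 12. Both pairs of sets overlapped across labels. The ratio of summed reads, scaled for depth, was 18.6 under the wildtype label and 19.2 under the knockout label. The 3′ part of Amz1 overlaps Gna12 on the other strand, whose level was 298 to 467 in every library; the library kit marks strand, but whether the counting used strand is not stated in the sources.

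**Figure D1:**
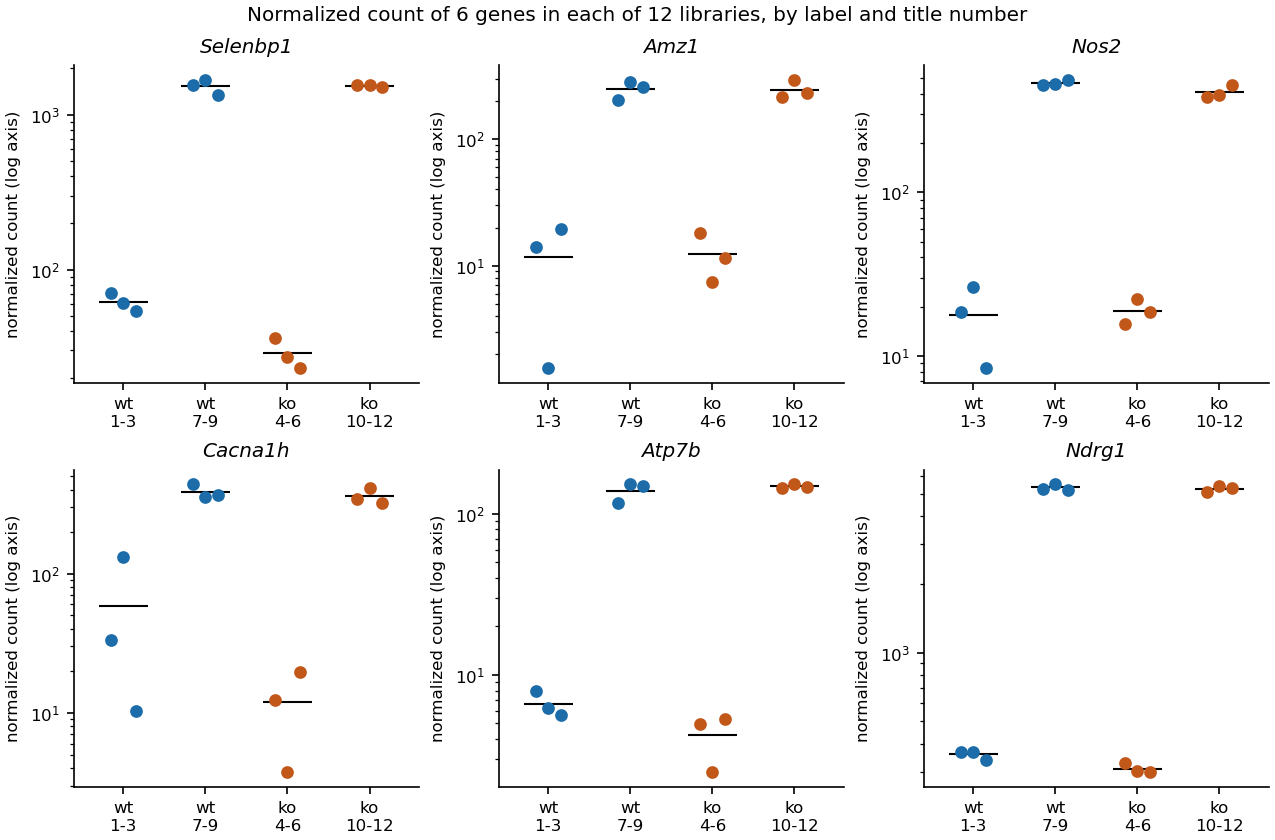
Normalized count (log axis) of each gene in the 12 libraries, with wildtype-labelled libraries in blue and knockout-labelled libraries in orange, split by title number; points are single libraries and lines are means of 3. In every panel all points of Myotube7 to 9 and Myotube10 to 12 lie above all points of Myotube1 to 3 and Myotube4 to 6.

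Between genes, levels were compared per kilobase of annotated exon. In Myotube7 to 9 the mean level per kilobase was 808 for Ndrg1, 672 for Selenbp1, 106 for Nos2, 39.7 for Cacna1h, 37.0 for Amz1 and 21.4 for Atp7b. In Myotube10 to 12 the order was the same (797, 679, 92.9, 36.9, 36.8 and 22.7), and Cacna1h and Amz1 were neighbours that did not differ beyond their spread. In Myotube1 to 3 the levels were 54.4 for Ndrg1, 27.1 for Selenbp1, 5.99 for Cacna1h, 4.02 for Nos2, 1.75 for Amz1 and 1.01 for Atp7b. Cacna1h and Nos2 changed places in Myotube4 to 6, at 1.22 and 4.28, where Amz1 had 1.85. Ndrg1 and Selenbp1 were thus the abundant members in each set.

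Of all 12553 genes tested, 111 (0.884%) were higher in the higher-numbered libraries by a log2 difference of at least 2 under both labels. All 6 genes were among them, as their choice required. Genes that fell by as much are not in this count. Ranked by the smaller of the log2 differences under the 2 labels, Selenbp1 was 4th, Nos2 7th, Amz1 9th, Atp7b 12th, Ndrg1 14th and Cacna1h 25th. No overlap between the sets, with the higher-numbered libraries above under both labels, was met by 1397 genes (11.1%), again including all 6. The median log2 difference of all genes was 0.00920 under the wildtype label and -0.0218 under the knockout label. Nothing is read from these counts, since the genes were chosen on this contrast.

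**Figure D2:**
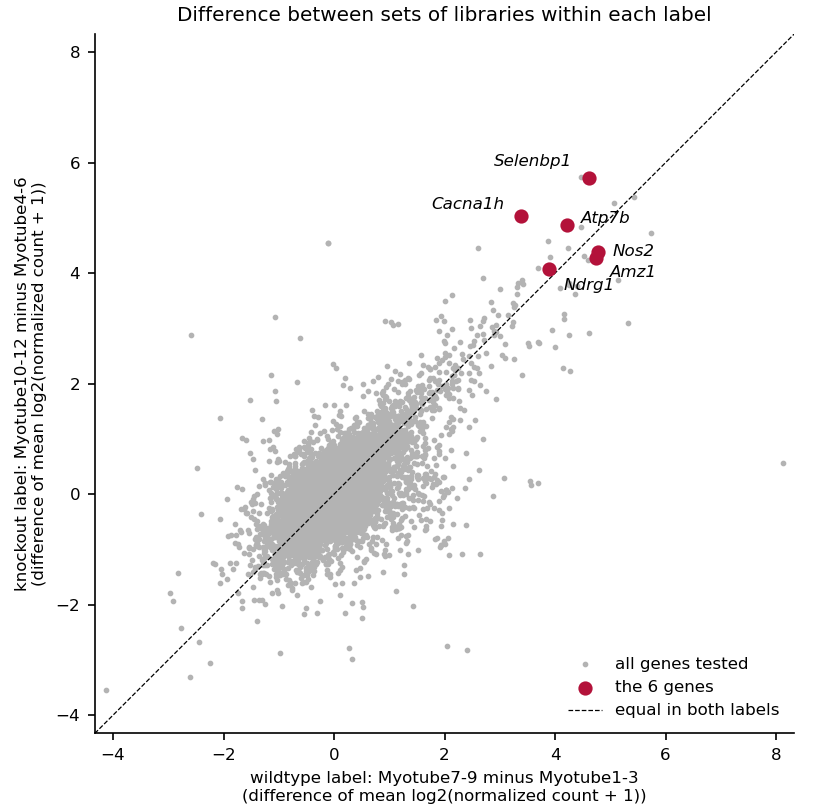
Difference of mean log2(normalized count + 1) between higher- and lower-numbered libraries under the wildtype label (horizontal) and the knockout label (vertical), for 12553 genes in grey and the 6 genes in red; the dashed line marks equal differences. Selenbp1 (4.61 and 5.71) and Cacna1h (3.38 and 5.04) lie above the line, while Nos2 (4.78 and 4.38) and Amz1 (4.73 and 4.27) lie below it; their wildtype steps were 4.34 without Myotube3 and 3.80 without Myotube2, so 1 library sets their side of the line.

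Other cell types were checked through their markers, because Nos2 is known from macrophages and Atp7b and Selenbp1 from liver. All 12 myotube markers were measured, with a summed level of 19881 to 34195 in Myotube1 to 6 and 20806 to 35240 in Myotube7 to 12. The 12 macrophage markers summed to 85.2 to 116 in the former and 67.8 to 111 in the latter, and the defining markers Adgre1, Csf1r and Ptprc were at 0 in some libraries and never above 5.11. Of 10 hepatocyte markers 3 were in the table, with a sum of at most 7.42 in any library. The macrophage and hepatocyte markers therefore did not step with the 6 genes. Markers of myoblasts (9 of 10 in the table) summed to 1780 to 1948 in Myotube1 to 6 and to 2092 to 2465 in Myotube7 to 12, mostly through the syndecan gene Sdc4 (194 to 292 and 647 to 741), while the determination factor gene Myod1 was lower in the higher-numbered sets (log2 difference -0.70 and -0.20). Those of adipocytes (5 of 9 in the table) summed to 148 to 229 and to 267 to 306, mostly through the fatty acid-binding protein gene Fabp4 (96.2 to 147 and 210 to 258), whereas Adipoq did not exceed 0.934. Markers of fibroblasts (83231 to 93233 and 90474 to 114414), endothelial cells (1215 to 1703 and 1302 to 1925) and smooth muscle (14017 to 20758 and 12995 to 19505) overlapped with labels pooled. Under the knockout label alone, fibroblast (83231 to 92085 and 106792 to 114414) and endothelial sums (1634 to 1703 and 1747 to 1925) did not overlap. The fibroblast sum was mostly Col1a1 and Col3a1 (log2 difference 0.49 and 0.15 under this label). Thy1, Pdgfra and Dcn rose by 0.10, 0.09 and 0.04, but Lum, Cd34, Ly6a and Dpt were lower (-0.53, -0.27, -0.25 and -0.17). Of the endothelial markers, Cldn5, Emcn and Kdr were lower (-1.32, -0.24 and -0.13), Esam was nearly equal and the others were higher. Smooth muscle sums were lower without overlap in the higher-numbered libraries under the wildtype label (14017 to 14875 and 12995 to 13675). The same held under the knockout label (19821 to 20758 and 18969 to 19505). The smooth muscle list holds Des, which is also a myotube marker, with a mean of 3828 under the wildtype and 8121 under the knockout label. The part of these cells in the steps was not tested. Fewer cells of a type and less RNA per cell cannot be told apart in bulk RNA.

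The contrast between labels was tested with limma on log2(normalized count + 1), adjusted over all genes by Benjamini-Hochberg. Over all 12 libraries none of the 6 genes differed between the knockout and the wildtype label, while 19.2% of all genes did. Their log2 fold changes were -0.53 for Selenbp1, 0.22 for Amz1, 0.00472 for Nos2, -0.94 for Cacna1h, -0.23 for Atp7b and -0.11 for Ndrg1 (adjusted p from 0.671 to 0.998). None had an unadjusted p under 0.05, and edgeR and DESeq2 also called 0 of the 6. The two-sided exact permutation test over all relabellings of 6 against 6, whose smallest possible p is 0.00216, gave p from 0.524 to 0.994. The intervals were wide, for example -3.58 to 2.52 for Selenbp1, since the steps for which the genes were chosen enter the spread, and nothing is read from the absence of calls.

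Inside Myotube1 to Myotube6, where the steps do not enter, Selenbp1 was 2.12-fold lower under the knockout label (log2 fold change -1.08, SE 0.15, limma adjusted p = 0.000336), with all 3 knockout-labelled values below all 3 wildtype-labelled values. Ndrg1 was 1.15-fold lower (-0.21, SE 0.06, adjusted p = 0.0360), also without overlap. These were 2 of 6 members past the threshold, where 18.8% of all genes were. Ndrg1 did not pass with edgeR (adjusted p = 0.072) or DESeq2 (adjusted p = 0.0612), nor without any one of Myotube1, 2, 5, 6, 7, 9 and 12, whereas Selenbp1 passed in each of these fits. Atp7b did not overlap either but did not pass (-0.56, adjusted p = 0.156). Its values here were at most 7.92, and it met the minimum mean of 10 only through Myotube7 to 12. Nothing is therefore read from its contrast here. With it, 3 of 6 members had no overlap, against 34.5% of all genes. Cacna1h differed by -1.77 (95% interval -3.27 to -0.27, adjusted p = 0.0943). That value was -0.85 (adjusted p = 0.278) without Myotube2, and Cacna1h passed without Myotube3 (-2.63, adjusted p = 0.0083). With all libraries it also passed with DESeq2 (-2.28, adjusted p = 0.0288) but not with edgeR (-2.01, adjusted p = 0.0711). Amz1 (0.45, adjusted p = 0.633) and Nos2 (0.20, adjusted p = 0.671) overlapped between labels, and Amz1 turned to -0.48 (adjusted p = 0.287) without Myotube2.

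Inside Myotube7 to Myotube12 none of the 6 genes passed, where 16.5% of all genes did. Selenbp1 differed by 0.02 (95% interval -0.31 to 0.35, limma adjusted p = 0.948) and Ndrg1 by -0.02 (-0.15 to 0.12, adjusted p = 0.882). Atp7b differed by 0.10, Cacna1h by -0.11, Amz1 by -0.01 and Nos2 by -0.19 (adjusted p from 0.720 to 0.996). Nos2 was the only member without overlap here, where 40.2% of all genes had none. None of the 6 had an unadjusted p under 0.05, and edgeR and DESeq2 called none, but Ndrg1 passed as lower under quantile normalization (-0.36, adjusted p = 0.00311).

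The difference of the label contrast between the lower- and higher-numbered libraries was also fitted. It equals the knockout-labelled step minus the wildtype-labelled step. The 6 genes were chosen for these steps, so nothing is read from its p-values for them. For Selenbp1 the difference was 1.10 on the log2 scale (95% interval 0.64 to 1.57, unadjusted p = 0.000194) and did not pass over all genes with limma (adjusted p = 0.244), nor with edgeR, but passed with DESeq2 (1.10, adjusted p = 0.0051). The other 5 genes did not pass in any of the 3 tools (limma adjusted p from 0.585 to 0.861). Limma called 1 of 12553 genes (0.00797%) in this comparison and edgeR 0, with 1070 and 1108 at an unadjusted p under 0.05. DESeq2 called 31. When the set of titles was added to the comparison of all 12 libraries, Selenbp1 passed as lower under the knockout label (-0.53, adjusted p = 0.0411) and the other 5 genes did not.

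**Figure D3:**
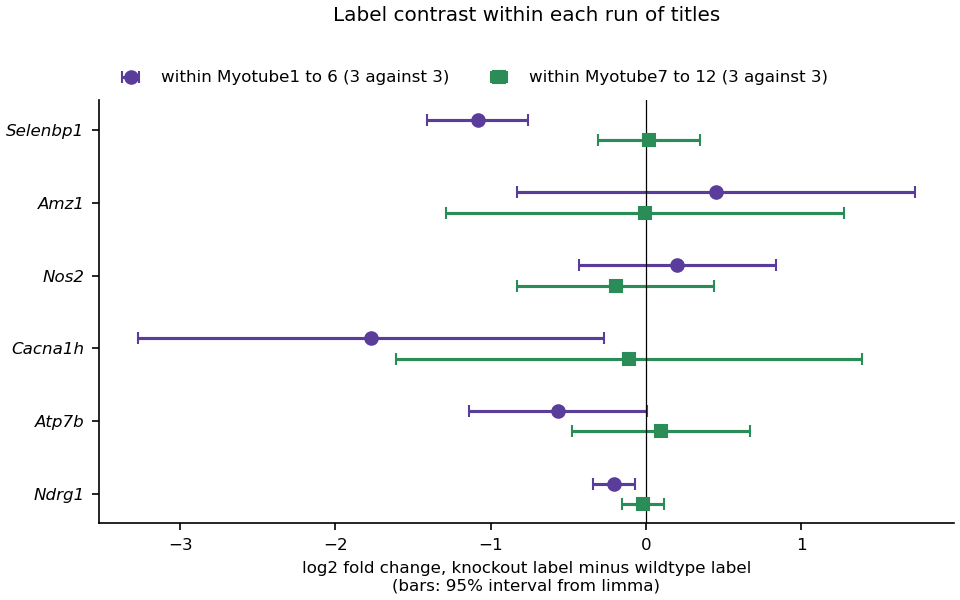
Log2 fold change of each gene, knockout label minus wildtype label, within Myotube1 to 6 (purple) and within Myotube7 to 12 (green), 3 libraries against 3, with 95% intervals from limma. The purple interval of Selenbp1 lies between -1.41 and -0.76, and all green intervals include 0.

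Close relatives of the 6 genes were read in the same way. Atp7a, the other copper-transporting ATPase, was the relative of Atp7b and lay at 54.2 to 101 normalized counts in the lower-numbered and 107 to 168 in the higher-numbered libraries, a ratio of set means of 1.77 under the wildtype label and 2.04 under the knockout label. Ndrg2 had ratios of 1.96 and 1.43. Ndrg3 (0.915 and 0.886) and Ndrg4 (0.913 and 0.812) were slightly lower in the higher-numbered libraries. Nos1, the neuronal nitric oxide synthase gene, overlapped between sets under both labels (18.7 to 116 over all libraries). Nos3, the endothelial one (30.7 to 78.1), overlapped under the wildtype label and was lower in the higher-numbered libraries under the knockout label, with a ratio of 0.824. The T-type channel gene Cacna1g had ratios of 0.679 and 1.93 and overlapped under the wildtype label. Cacna1i, the third T-type channel gene, did not exceed 4.51. Amz2, the other archaemetzincin, had ratios of 1.28 and 1.51. Selenbp2 and Cacna1i apart, which had too few reads for a ratio, the largest ratio among these relatives was 2.04.

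Some relatives differed by label over all 12 libraries. Ndrg4 was 2.04-fold higher under the knockout label over all 12 libraries (log2 fold change 1.03, SE 0.09, limma adjusted p = 6.41e-06), from 281 to 345 normalized counts under the wildtype label to 544 to 795. Cacna1s, the pore of the muscle L-type calcium channel that triggers contraction, was 1.77-fold higher (0.82, SE 0.15, adjusted p = 0.0021). Ndrg2 did not pass over all 12 libraries (adjusted p = 0.202) but was higher inside Myotube1 to 6 (0.68, adjusted p = 0.00122), and the difference of its label contrast between the runs of titles did not pass (adjusted p = 0.552).

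**Figure D4:**
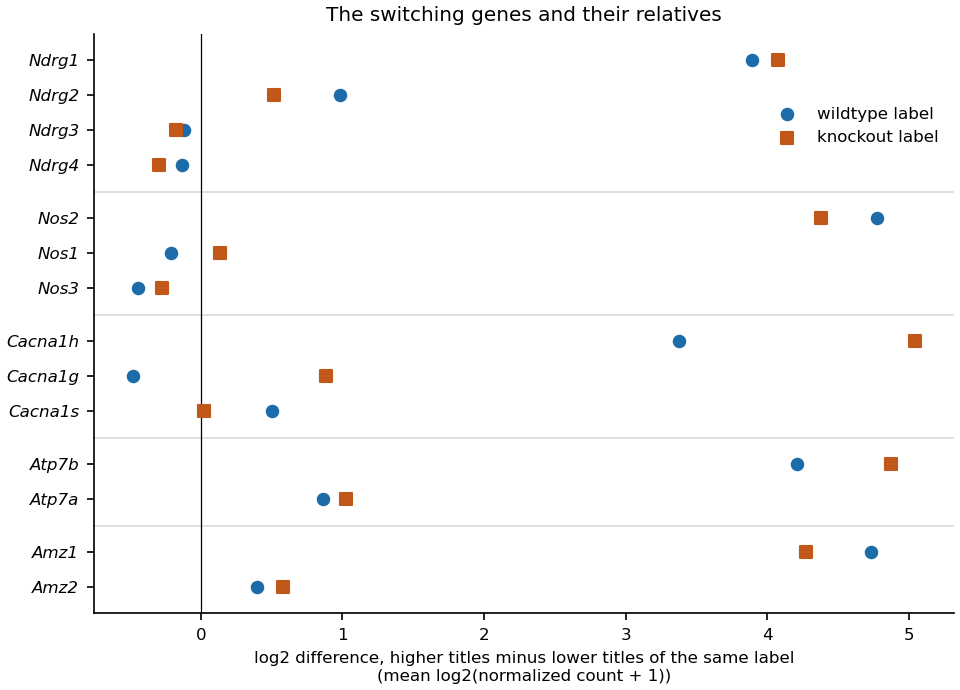
Difference of mean log2(normalized count + 1) between higher- and lower-numbered libraries for each gene and its relatives, under the wildtype label (blue circles) and the knockout label (orange squares). The members lie between 3.38 and 5.04, while the relatives lie between -0.48 and 1.02; Selenbp1 is left out because Selenbp2 had too few reads.

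Genes of the pathways around the 6 members were counted from lists chosen with earlier results of these data known, over all 12 libraries and against 19.2% of all genes called. Of 20 nitric oxide synthesis genes 3 rose and 1 fell under the knockout label, with a median log2 fold change of 0.22 where the median of all genes was -0.00147. Gchfr, a regulator of the synthesis of the cofactor tetrahydrobiopterin, rose 3.94-fold from 6.20 ± 1.57 to 27.2 ± 5.03 normalized counts (SD, n = 6 each), and Pcbd1, which recycles that cofactor, rose 1.69-fold. Slc7a2, an arginine transporter, fell 1.56-fold, and did not pass without knockout replicate 6 (adjusted p = 0.0512). Of 18 inflammatory inducers and companions of Nos2, 1 rose and 4 fell (median -0.27). Epas1, which encodes HIF-2α, rose 1.63-fold. The cytokine gene Tnf fell 3.50-fold, although it lay at or below 3 reads in Myotube4, 10 and 11, and the transcription factor gene Cebpd fell 1.38-fold.

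Of 12 voltage-gated calcium channel genes 2 rose and 2 fell (median 0.0146). Cacna1s and Cacng1, an accessory subunit of the muscle channel, rose, the latter 1.42-fold. The β-subunit genes Cacnb4 and Cacnb1 fell 7.82- and 1.72-fold, Cacnb4 from 9.90 to 227 normalized counts under the wildtype label to at most 6.22, with its highest value in Myotube1. Without Myotube1 its log2 fold change was -2.35 in place of -2.97. These low genes depend on the setting: over the alternatives that kept all libraries the log2 fold change was 1.19 to 2.11 for Gchfr, -1.97 to -0.84 for Tnf and -4.06 to -1.57 for Cacnb4, all past the threshold. Of 23 copper-handling genes 2 rose and 1 fell (median -0.05). The copper chaperone gene Atox1 and the superoxide dismutase gene Sod1 rose 1.52- and 1.29-fold, and the ferroxidase gene Heph fell 1.78-fold. With 8 abundant genes left out of the scaling, Cacng1, Atox1 and Sod1 did not pass. Atox1 and Heph also failed without single libraries (highest adjusted p = 0.0628 and 0.0581), and Heph also under quantile normalization (adjusted p = 0.0689).

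Of 11 genes of the NDRG family, its kinases and MYC factors 2 rose and 2 fell (median -0.056). Ndrg4 and the kinase gene Gsk3a rose, the latter 1.29-fold. Mycl and the kinase gene Sgk1 fell 4.92- and 1.55-fold, Mycl being highest in Myotube2 at 356 normalized counts against 63.5 to 143 in the other wildtype-labelled libraries. Of 27 genes of selenoproteins and sulfur metabolism 8 rose and 2 fell (median 0.10), led by Msrb1, a methionine sulfoxide reductase (1.82-fold), and Gpx3, a secreted glutathione peroxidase, among the rises. Dio2, which activates thyroid hormone, and Cth, which makes cysteine, fell 2.49- and 1.87-fold, and Cth did not pass without any one of 8 libraries (highest adjusted p = 0.0671). Of 19 metzincin and archaemetzincin proteases 4 rose and none fell (median 0.14), among them the matrix proteases Mmp2 (1.37-fold) and Adamts2 (1.33-fold). In the hypoxia list 1 of 25 genes rose, the glycolytic gene Aldoa (1.41-fold), which did not pass under quantile normalization (adjusted p = 0.492), and none fell (median 0.04). Inside Myotube1 to 6, where the steps do not enter the spread, 7 of the 25 rose and 5 fell, against 18.8% of all genes called. Inside Myotube7 to 12, 1 rose and none fell, against 16.5% of all genes called.

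The lists were also read for the pattern by title number. All higher-numbered libraries lay above all lower-numbered ones under both labels in 2 of 20 nitric oxide genes, 4 of 18 inflammatory genes, 2 of 12 calcium channel genes, 4 of 23 copper genes, 3 of 11 NDRG-related genes, 2 of 27 selenium and sulfur genes and 5 of 19 proteases, members included, against 11.1% of all genes. Under the same rule 24 of 25 hypoxia genes did so. In the copper list the metallothionein genes Mt1 and Mt2, whose products bind copper and zinc, lay at 173 to 275 and 127 to 310 normalized counts in Myotube1 to 6 and at 1040 to 1203 and 922 to 1334 in Myotube7 to 12. In the inflammatory list the prostaglandin synthase gene Ptgs2 lay at 311 to 406 and 696 to 937, while the chemokine gene Ccl2 went the other way, from 211 to 416 down to 33.1 to 45.1. These 4 genes were chosen for mention after their values were seen.

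Finally, genes most like each member were found by Pearson's r of log2(normalized count + 1) over the 12 libraries, among 8939 named genes averaging at least 50 normalized counts. The libraries form separate clusters by title number, so r mostly measures this step and is given as a description. Ndrg1 was most like Egln3, a HIF prolyl hydroxylase gene (0.999), Fam117b (0.998) and Plod2, a collagen lysyl hydroxylase gene (0.997). Selenbp1 was much like Foxo3, a forkhead transcription factor gene (0.996), and Kbtbd11 (0.995). Nos2 was most like the glucose transporter gene Slc2a3 (0.995), the lipid droplet gene Hilpda (0.995) and the glycogen synthase gene Gys1 (0.992). Atp7b was most like Nadk2, Jmy and Egln3 (0.995 each), Amz1 like Nrn1, Dnajc5 and Sh2b2 (0.986 to 0.990), and Cacna1h like Mfsd9, Grb10 and Lonrf1 (0.980 to 0.993).

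Several of these genes stepped less than the member they resembled. Foxo3 lay at 299.8 to 383 normalized counts in Myotube1 to 6 and 859 to 1020 in Myotube7 to 12, and Plod2 at 1136 to 1276 and 3415 to 3811. Slc2a3 lay at 41.1 to 80.5 and 507 to 618, and Fam117b at 136 to 169 and 1614 to 2062. Among the members themselves, r was 0.76 to 0.99 over the 12 libraries, which follows from the step they were chosen for. After the mean of each set of 3 was removed, r ranged from -0.82 (Amz1 and Nos2) to 0.81 (Selenbp1 and Ndrg1). Some of these values rest on few reads, such as 1 read of Amz1 in Myotube2 and 9 of Nos2 in Myotube3. Nothing is read from them.

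**Figure D5:**
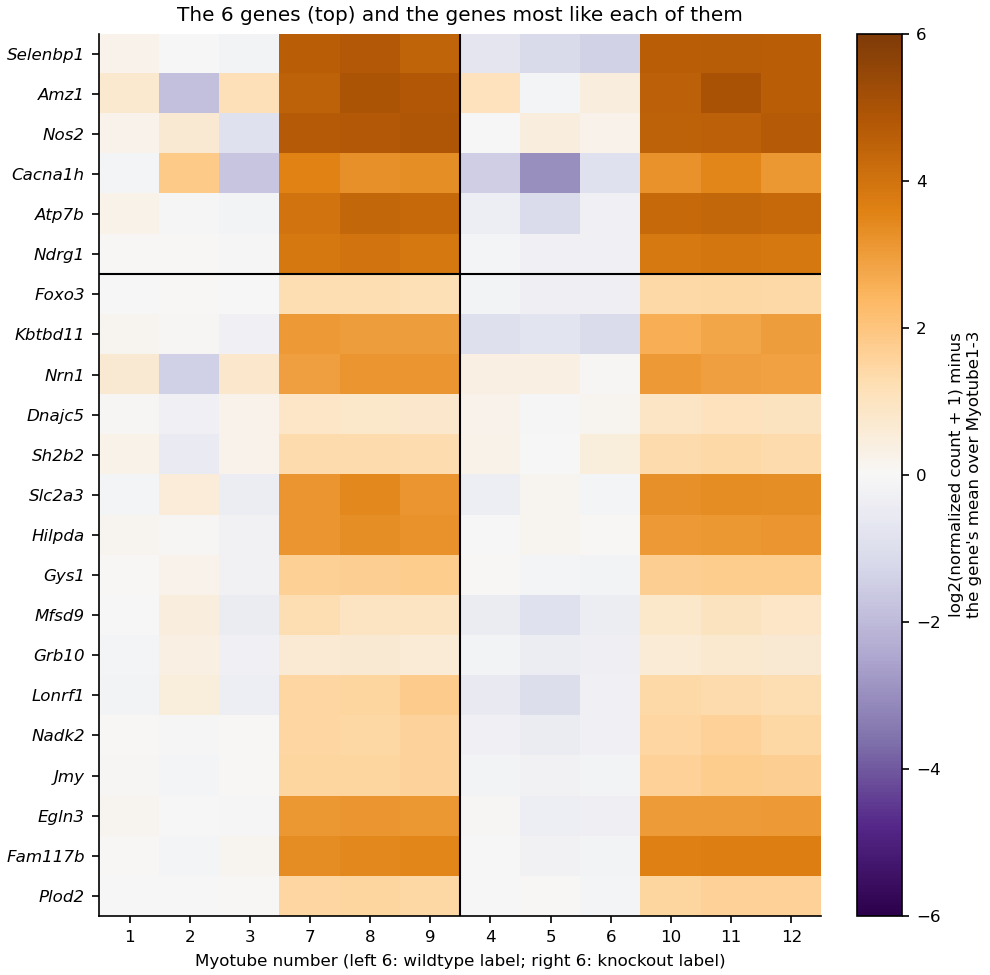
Log2(normalized count + 1) minus the gene's mean over Myotube1 to 3, for the 6 genes (top rows) and 16 of the genes most like them, in 12 libraries ordered by label (left 6 wildtype, right 6 knockout) and title number; orange is higher and purple lower. Each row turns orange in Myotube7 to 9 and Myotube10 to 12, and the top rows are mostly the darkest, with Fam117b about as dark as Cacna1h.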

How the data were processed

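Total RNA was sequenced in 12 stranded libraries, per the labels' protocols. The authors deposited normalized counts, a signal scaled with DESeq2; the submitters' processing notes also name Trimmomatic 0.33 (trimming), STAR 2.5.2 (alignment), RSEM 1.3.3 (counting) and the build mm10. The deposited values were whole reads divided by 1 factor per library (100% whole within 1e-06), so reads were recovered for edgeR and DESeq2, which called 2411 and 2787 genes over all 12 libraries.

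Identifiers were named from GENCODE M21 (19953 of 20201, 98.8%). The main test was limma 3.58.1 (trended prior, R 4.3.3) on log2(value + 1), which understates changes of low genes, two-sided, for 12553 genes with a mean of at least 10 and an adjusted p threshold of 0.05; 7648 genes lay below that mean. The contrasts were knockout against wildtype label over 12 libraries, within Myotube1 to 6, within Myotube7 to 12, and the difference of the last 2. The limma fits were also run on simulated data with known changes. The simulated counts held no step shared by both labels, so they do not cover the spread seen for the 6 genes. The choice of test assumed normalized values, and it stayed the main one after reads had been recovered.

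The members and lists were chosen with earlier results of these data known. Named genes were the members, their relatives, the 3 genes most like each by r (1 of them is not reported here), up to 2 rises and 2 falls per list by size, and Arntl. The abundant genes left out in 1 of the scalings were 8 genes above 1% of reads in at least 1 library. They were non-coding, mitochondrial or unnamed genes and Lars2, and other protein-coding genes were not considered for this set. Together they took 49.2% to 65.4% of a library. No pair of libraries agreed within sampling noise (lowest chi-square per degree of freedom 3.09). Alternatives were other pseudocounts, filters and scalings, robust limma, edgeR 4.0.16, DESeq2 1.42.0, the set of titles as a term, and each library left out.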

Additional observations from a re-analysis of the deposited data

Results flagged for a closer look

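Among 36 groups of 6 libraries checked for the members, their relatives and Arntl, 2 held a library far from the other 5. Chance alone gives about 1 in 20, but these shares are not compared. The 36 include the groups of the members, which could hardly be flagged because of their step. Nos1 stood at 116 normalized counts in wildtype replicate 2 (Myotube2), with 18.7 to 43.5 in the other wildtype-labelled libraries. Cacna1i stood at 4.51 in knockout replicate 5 (Myotube11), which is 4 reads, with at most 0.954 in the other knockout-labelled libraries. No member had such a library within its label, where the step between sets fills the range.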

How the results depend on the processing

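No paired analysis was possible because the replicate numbers follow accession order and pair no samples. The limits are these: Amz1, Atp7b, Nos2 and Cacna1h rest on few reads in the lower-numbered libraries, and 3 libraries a set allow no finer view. With the 8 abundant genes left out of the scaling, the median log2 fold change over 12 libraries was -0.166. The calls were then 613 higher and 2201 lower, in place of 1277 and 1139. Inside Myotube1 to 6 they were 712 and 2301 in place of 1357 and 1001. Inside Myotube7 to 12 they were 534 and 1831 in place of 1110 and 959. Selenbp1 passed inside Myotube1 to 6 in every alternative run (log2 fold change -1.25 to -0.89).

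The number of members past the threshold inside Myotube1 to 6 was 1 without a filter, with upper-quartile scaling and with edgeR, and 1 to 3 with 1 library left out; inside Myotube7 to 12 it was 1 with quantile normalization. With the set of titles as a term, 3785 genes and 1 member passed. The difference of label contrasts called 0 genes with a pseudocount of 10, 0 with edgeR and 31 with DESeq2 (1 member), and 1 to 4 with 1 library left out. Inside Myotube7 to 12 leaving out 1 library gave 1190 (without wildtype replicate 4) to 3082 genes.

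With a pseudocount of 10 the log2 steps within the wildtype and knockout labels were 4.42 and 5.33 for Selenbp1, 4.16 and 3.86 for Nos2, 3.16 and 3.47 for Atp7b, 3.66 and 3.53 for Amz1, and 4.14 for Cacna1h within the knockout label. The Ndrg1 steps were 3.97 and 3.84 with quantile normalization and 3.79 and 3.99 without the abundant genes.

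Log2 fold changes that were not called changed sign as follows; the cause was not tested. Over 12 libraries Nos2 was -0.0416 with a pseudocount of 10, -0.16 without the abundant genes, -0.22 with edgeR and -0.19 with DESeq2, Amz1 was -0.0612 with edgeR and -0.00929 with DESeq2, and Atp7b was 0.0560 with DESeq2. Inside Myotube1 to 6 Amz1 was -0.00422 with edgeR and -0.0153 with DESeq2. Inside Myotube7 to 12 Amz1 was 0.00769 with upper-quartile scaling and 0.00121 with edgeR, Selenbp1 was -0.16 with quantile normalization and -0.14 without the abundant genes, and Atp7b was -0.0613 without them. For the difference of label contrasts Ndrg1 was -0.13 with quantile normalization, and Amz1 was 0.00543 with edgeR and 0.00807 with DESeq2. With 1 library left out the ranges over 12 libraries were -1.11 to 0.0984 for Selenbp1, -0.62 to 0.77 for Amz1, -0.65 to 0.50 for Nos2, -0.73 to 0.36 for Atp7b and -0.53 to 0.31 for Ndrg1. Inside Myotube1 to 6 they were -0.48 to 1.03 for Amz1 and -0.23 to 0.54 for Nos2. Inside Myotube7 to 12 they were -0.0683 to 0.0967 for Selenbp1, -0.144 to 0.0929 for Amz1, -0.0241 to 0.172 for Atp7b and -0.0393 to 0.00826 for Ndrg1. For the difference they were -1.04 to 0.47 for Amz1 and -0.735 to 0.0337 for Nos2.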

Other observations

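Some genes outside the 6 had larger steps between sets of libraries in both labels, and they were chosen for mention after their values were seen. Ranked by the smaller of both log2 differences, Gm10499 was first (5.42 under the wildtype label and 5.37 under the knockout label), followed by Trpm2, a calcium-permeable cation channel gene (5.07 and 5.27), and Gipr, the receptor gene for an incretin hormone (5.74 and 4.73). Their means over 12 libraries were 29.8, 22.2 and 25.8 normalized counts, below those of all 6 members, the lowest of which was 74.4 for Atp7b.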
